A study of Mus musculus with 2 samples.

Results

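The miR-130/miR-301 family is a group of miRNAs that share a seed, the bases by which a miRNA pairs with its target mRNAs. The members were the 4 mature miRNAs mmu-miR-130a-3p, mmu-miR-130b-3p, mmu-miR-301a-3p and mmu-miR-301b-3p (below without the species prefix), found by name among all 1881 mouse miRNAs of the array. The data were miRNA array signals of sorted bone marrow LSKs (lineage-negative, Sca-1-positive and c-Kit-positive cells, which hold hematopoietic stem and early progenitor cells). The week-3 group (3W_LSK) was sorted 3 weeks after doxycycline had been taken out of the drinking water, so that BCR/ABL (BA), the fusion gene of chronic myelogenous leukemia, was expressed. The week-0 group (0W_LSK) was sorted at week 0 and is the control. Mice of both groups were C57BL/6 and carried both transgenes of the tet-off model, tTA under the control of Scl and a BA gene that tTA switches on. Doxycycline at 20 mg/L kept BA switched off until it was withdrawn. In the study's reporter mice, where Scl/tTA drives GFP, only a part of the LSKs was GFP-positive at week-3. The share of LSKs with BA in the week-3 pool is not known here. The age of the mice is not given in the sources used here. Each group was a pool of LSKs from 3 mice on 1 array, so no test between the groups was possible. No pool without BA was taken off doxycycline, so BA, doxycycline withdrawal, time and the single pools cannot be told apart. The question was whether the fall of miR-130a-3p extended to its paralogs.

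MiRNAs of a seed family can repress the same mRNAs, and those of the miR-130/miR-301 family are known to act on Tsc1, a brake on growth signaling, among other targets. In blood formation, miR-130a is best known from human progenitors, where it declines as megakaryocytes form. In human chronic myelogenous leukemia cells, miR-130a and miR-130b have been linked to BCR-ABL through the growth regulator CCN3.

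The mature sequences are shown because the family is defined by the seed, bases 2 to 8, printed in capitals (5′ to 3′, RefSeq, GRCm38.p6).
miR-130a-3p: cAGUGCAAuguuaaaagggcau
miR-130b-3p: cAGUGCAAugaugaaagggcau
miR-301a-3p: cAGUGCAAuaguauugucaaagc
Counted from the 5′ end, miR-130b-3p differs from miR-130a-3p at 2 of 22 bases, U11A and A13G, both outside the seed. miR-301a-3p is 23 bases long, shares the first 9 bases with both and differs from miR-130a-3p at 10 of the 22 positions compared.

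The probes are shown because they read the 3′ side of the miRNA, where the members differ. Capitals mark the bases that pair with the seed, and no capitals are given for miR-301b-3p.
miR-130a-3p, 18 nt probe: atgcccttttaacaTTGC
miR-130a-3p, 19 nt probe: atgcccttttaacaTTGCA
miR-130b-3p, 17 nt probe: atgccctttcatcaTTG
miR-130b-3p, 18 nt probe: atgccctttcatcaTTGC
miR-301a-3p, 20 nt probe: gctttgacaatactaTTGCA
miR-301a-3p, 21 nt probe: gctttgacaatactaTTGCAC
miR-301b-3p, 17 nt probe: gctttgacaataccatt
miR-301b-3p, 20 nt probe: gctttgacaataccattgca
The 18 nt probes of miR-130a-3p and miR-130b-3p differ by T10C and A12T, and the 20 nt probes of miR-301a-3p and miR-301b-3p by T14C, counted from the 5′ end of the probe. Binding of a probe to another member was not tested.

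The members come from 3 loci in GRCm38.p6. Mir130a lies at chr2:84741115-84741178 on the minus strand, inside no annotated gene, 2459 bp from Ypel4 and 986 bp from the lncRNA gene Gm19426. Mir130b (chr16:17124061-17124142) and Mir301b (chr16:17124400-17124496) are 257 bp apart on the minus strand, both within the span of the protein-coding gene 2610318N02Rik. Mir301, which gives miR-301a, lies at chr11:87113004-87113089 on the plus strand within the span of Ska2, a gene of the kinetochore.

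Of the 4 members, 3 were detected on both arrays and miR-301b-3p on neither. miR-130a-3p was lower at week-3 with both of its probes, whereas miR-130b-3p and miR-301a-3p stayed within 1.5-fold. Thus 1 of the 3 detected members reached the study's threshold of a ratio of 0.67 or less, and 0 reached 1.5. Among all 213 miRNAs detected on at least 1 array, 28.6% were lower and 25.8% higher by the same thresholds. The median log2 difference of the 3 members was -0.14, against 0.00 over the 213. In pooled cells, fewer cells with a miRNA and less of it per cell cannot be told apart.

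miR-130a-3p had the deepest fall of the family. The processed signal of its 18 nt probe (background-subtracted intensity, before scaling) ran from 32.8 to 47.5 over the week-3 spots with a median of 39.9, against 168 to 206 with a median of 192 over the week-0 spots. Its 19 nt probe ran from 47.2 to 66.3 with a median of 58.4 at week-3, against 227 to 284 with a median of 265 at week-0. All week-3 spots of each probe lay below all week-0 spots of that probe. The means were 39.5 ± 3.97 at week-3 and 188 ± 11.5 at week-0 for the 18 nt probe (SD over 15 spots each), a ratio of 0.210. They were 58.8 ± 5.26 at week-3 and 259 ± 16.001 at week-0 for the 19 nt probe (SD over 15 spots each), a ratio of 0.227. Both probes therefore showed a difference of more than 4-fold before scaling.

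Summed over its probes, the signal of miR-130a-3p was 98.3 at week-3 and 448 at week-0, which is 4.55-fold lower before scaling. Of the 158 miRNAs detected on both arrays, 1.9% were at least 4-fold lower before scaling. After quantile normalization the log2 signals were 6.86 at week-3 and 8.61 at week-0. miR-130a-3p thus had a log2 difference of -1.75 (SE 0.03 over spots, from the unscaled signals), or was 3.37-fold lower. It ranked 3rd lowest of the 158, of which 3.16% were at least 3-fold lower on this scale. Every alternative that was run left it past the threshold, from -2.19 without normalization to -1.15 with normexp background correction (offset of 50) and median polish over spots and probes, which were changed together. There the ratio was 0.450, against 0.297 in the main values.

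**Figure D1:**
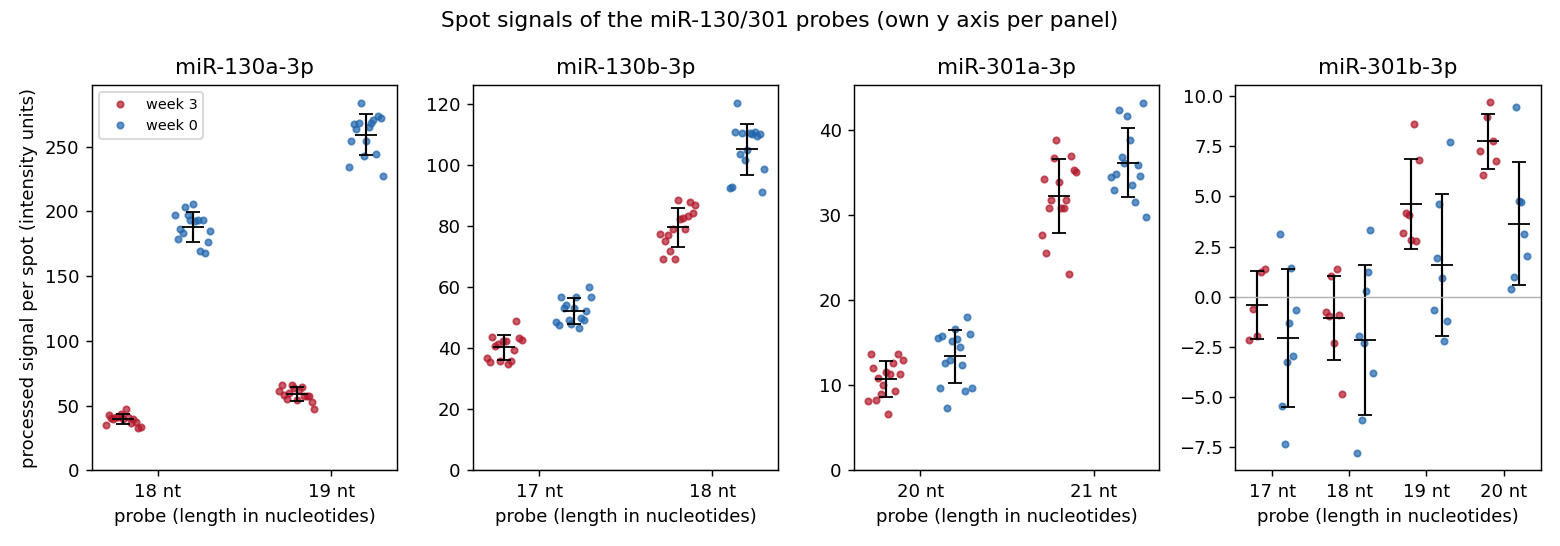
Processed signal of each spot (intensity units, own linear axis per miRNA) by probe length, with week-3 left of week-0 in each pair; black bars are the mean and SD over spots. The miR-130a-3p spots do not overlap between the arrays, those of miR-301a-3p do, and the miR-301b-3p spots lie between -7.77 and 9.68.

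miR-130b-3p, the paralog that differs from miR-130a-3p at 2 bases, had a much smaller difference. Its 17 nt probe ran from 34.8 to 49.0 with a median of 41.1 over the week-3 spots, against 46.5 to 60.003 with a median of 52.1 over the week-0 spots. Its 18 nt probe ran from 69.2 to 88.6 with a median of 79.0 at week-3, against 91.0 to 120.2 with a median of 109 at week-0. The spots of the shorter probe overlapped between the arrays and those of the longer probe did not. The means of the 17 nt probe were 40.2 ± 4.10 at week-3 (SD over 14 spots) and 52.1 ± 4.10 at week-0 (SD over 15 spots), a ratio of 0.772. Those of the 18 nt probe were 79.5 ± 6.33 at week-3 and 105 ± 8.41 at week-0 (SD over 15 spots each), a ratio of 0.756.

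The unscaled probe ratios of miR-130b-3p lay below 0.882, the median of the 158 miRNAs detected on both arrays. Over the summed signals of miR-130b-3p the unscaled ratio was 0.762, the 65th lowest of the 158. Its summed signals were 119.8 at week-3 and 157 at week-0, and its normalized log2 signals 7.07 at week-3 and 7.17 at week-0. The log2 difference was -0.10 (SE 0.03, from the unscaled signals), the 75th lowest of 158. It was below 0 under 14 of 15 alternatives, was 0.09 with the brightest probe alone, and was short of 1.5-fold under each of them. That brightest probe is the 18 nt probe, whose signal before scaling was lower at week-3 (ratio of 0.756). The alternative with the longer probe alone, which is the same probe, gave -0.11, so 0.09 and -0.11 differ by the normalization only.

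miR-301a-3p was dim on both arrays. Its 21 nt probe ran from 23.1 to 38.9 with a median of 31.8 over the week-3 spots, against 29.8 to 43.2 with a median of 35.3 over the week-0 spots. Its 20 nt probe ran from 6.65 to 13.7 with a median of 11.3 at week-3, against 7.28 to 18.0 with a median of 14.5 at week-0. The spots of both probes overlapped between the arrays, and no spot of the 20 nt probe was flagged well above background on either array. The mean of the 21 nt probe was 32.3 ± 4.36 at week-3 (SD over 15 spots) and 36.2 ± 4.03 at week-0 (SD over 14 spots), a ratio of 0.891. That of the 20 nt probe was 10.8 ± 2.13 at week-3 and 13.4 ± 3.16 at week-0 (SD over 15 spots each), a ratio of 0.803.

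Summed, miR-301a-3p had 43.0 at week-3 and 49.6 at week-0. The normalized log2 difference was -0.14 (SE 0.06, from the unscaled signals), the 71st lowest of 158. It was below 0 under 13 of 15 alternatives, with 0.06 after scaling to the 75th percentile of the miRNAs detected on both arrays and 0.13 with the total signals written by the scanner software, and never reached 1.5-fold.

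**Figure D2:**
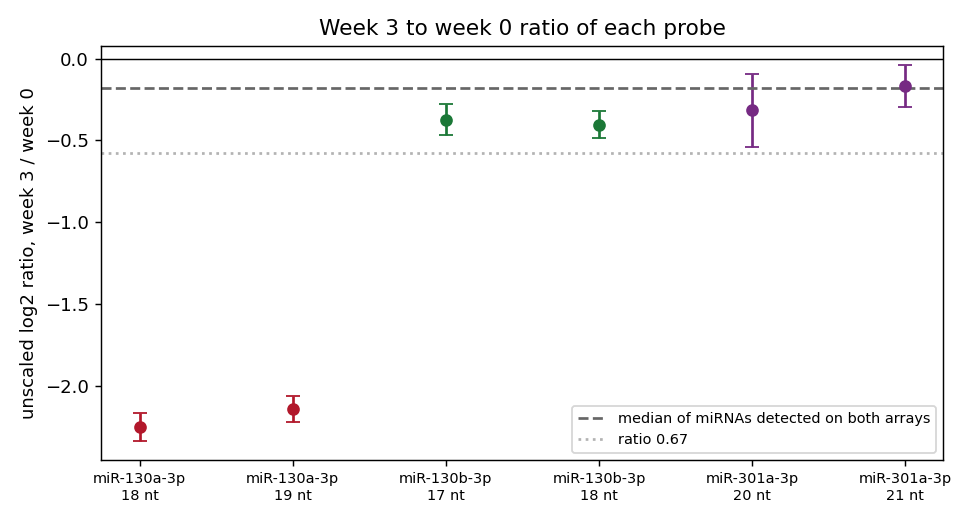
Unscaled log2 ratio of week-3 to week-0 for each probe of the detected members; bars are 95% intervals from the SE over spots and cover error within the arrays only. Both miR-130a-3p probes lie below -2, and the probes of miR-130b-3p and miR-301a-3p lie between the 0.67 threshold (dotted) and 0.

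miR-301b-3p, which shares its locus with miR-130b-3p, was not detected on either array. The scanner software called a miRNA detected where the total of a probe exceeded 3 times its error, and the highest such multiple of miR-301b-3p was 2.31 at week-3 and 0.815 at week-0, both for the 20 nt probe. The spots of that probe ran from 6.06 to 9.68 with a median of 7.52 at week-3, against 0.402 to 9.48 with a median of 3.10 at week-0. Negative control spots averaged 4.50 ± 2.92 at week-3 (SD over 977 spots) and 4.83 ± 3.56 at week-0 (SD over 960 spots). The means of its 17 and 18 nt probes were below 0 on both arrays. In the authors' normalized table it had log2 values of 2.60 at week-3 and 2.50 at week-0, both flagged as not different from background. With both arrays below detection, no fold change is given.

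Because all members are read on the same arrays, the gap between their unscaled log2 ratios does not depend on a common scaling of an array. The ratio of miR-130a-3p was lower than that of miR-130b-3p by a log2 gap of -1.79 (SE 0.04 over spots, 95% interval -1.88 to -1.71), or 3.47-fold. Against miR-301a-3p the gap was -1.98 (SE 0.06, interval -2.11 to -1.85), or 3.95-fold. After quantile normalization, which is not a common scaling, the gap was -1.66 to miR-130b-3p and -1.61 to miR-301a-3p, outside both intervals. The gap of miR-130b-3p minus miR-301a-3p was -0.19 (SE 0.07, interval -0.32 to -0.06) before scaling and 0.04 after quantile normalization, so their order depended on the scaling. These intervals cover differences between spots of 1 array and not between mice.

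**Figure D3:**
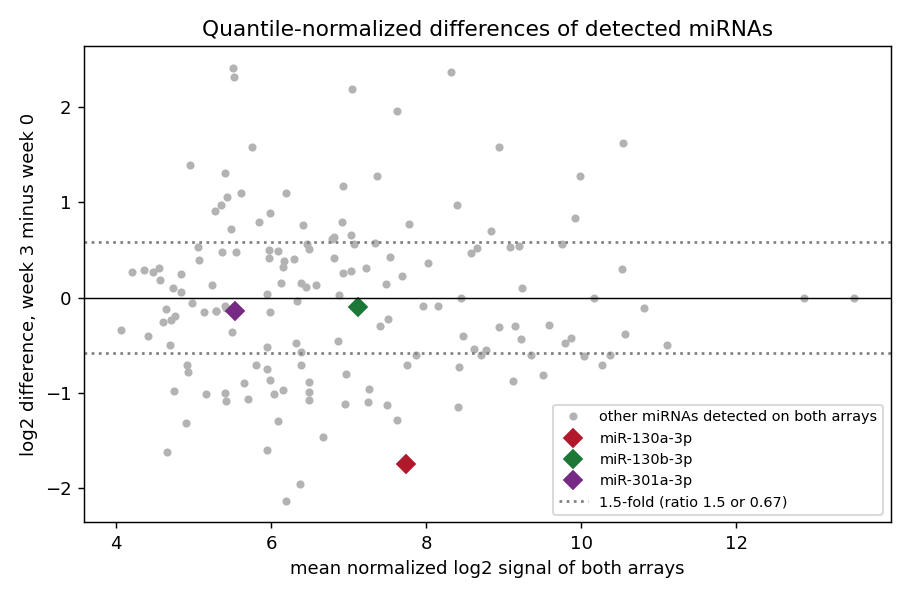
Log2 difference of week-3 minus week-0 against the mean normalized log2 signal for the 158 miRNAs detected on both arrays (grey) and the detected members (diamonds); dotted lines are the 1.5-fold thresholds. miR-130a-3p sits at -1.75, while miR-130b-3p and miR-301a-3p sit at -0.10 and -0.14.

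Processing changed the size of these differences and the order of miR-130b-3p and miR-301a-3p, but not the place of miR-130a-3p. miR-130a-3p was the lowest of the detected members under all 15 alternatives, with a gap to miR-130b-3p between -1.96 with the brightest probe alone and -1.10 with normexp, the offset and median polish together.

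**Figure D4:**
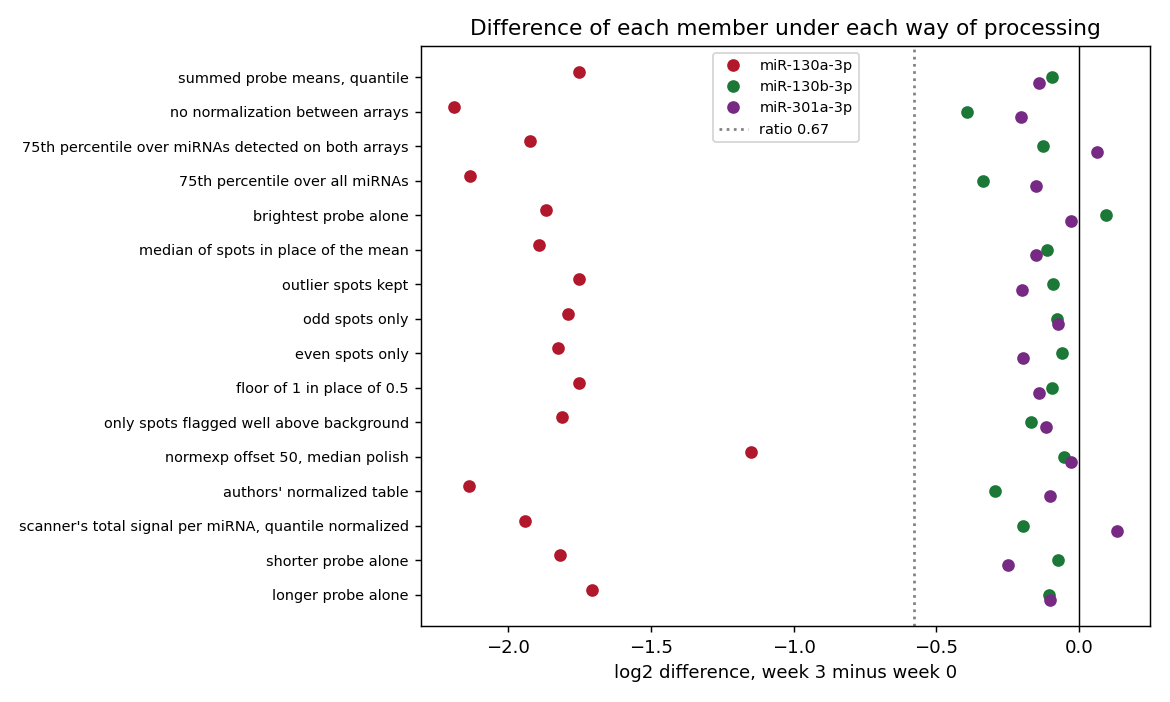
Log2 difference of week-3 minus week-0 of the detected members under the main processing (top) and 15 alternatives. miR-130a-3p lies between -2.19 and -1.15 throughout, left of the ratio of 0.67 (dotted), and the other members lie between -0.39 and 0.13.

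Further array miRNAs carry the same seed in RefSeq, printed as above.
miR-130c: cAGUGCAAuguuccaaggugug
miR-721: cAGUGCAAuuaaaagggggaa
miR-6341: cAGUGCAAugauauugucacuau
miR-6389: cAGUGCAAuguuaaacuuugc
None of these 4 was detected (0 of 4), with summed signals between -7.99 and 11.2 at week-3 and between -8.12 and 3.37 at week-0. The other arms of the 4 hairpins, which are as a rule the less stable strand, were not detected either (0 of 4), with signals up to 16.1 at week-3 and 24.8 at week-0, in each case for miR-130b-5p.

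Of 3 named relatives whose seed is shifted by 1 base, 1 was detected. miR-148a-3p, known to act on DNA methyltransferase mRNAs, had summed signals of 69.2 at week-3 and 99.3 at week-0. Its log2 difference of -0.48 (SE 0.04, from the unscaled signals) was short of the threshold. miR-148b-3p and miR-152-3p were not flagged as detected on either array. The list left out miR-19a-3p and miR-19b-3p, whose seed is shifted by 1 base in the other direction. Both were detected on both arrays, with log2 differences of 0 for miR-19a-3p and -0.38 for miR-19b-3p.

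Of the 158 miRNAs detected on both arrays, 135 were matched to a RefSeq mature sequence, and these formed 13 seed families with at least 2 members. Families with an unmatched member, such as that of miR-23a-3p and miR-23b-3p, are missing or incomplete here. Among the 13, the members of the miR-130/miR-301 family differed most in their unscaled ratio. The range between its highest and lowest log2 ratio was 1.98, against a median of 0.71 over the 13 families and 1.27 for the next, miR-27a-3p and miR-27b-3p. Among the matched families its range ranked 1st under the main processing, where it was 1.66, and under 12 of 13 alternatives. With the total signals written by the scanner software it ranked 3rd. The family was chosen with the fall of miR-130a-3p known, and the rank is a description with no test.

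**Figure D5:**
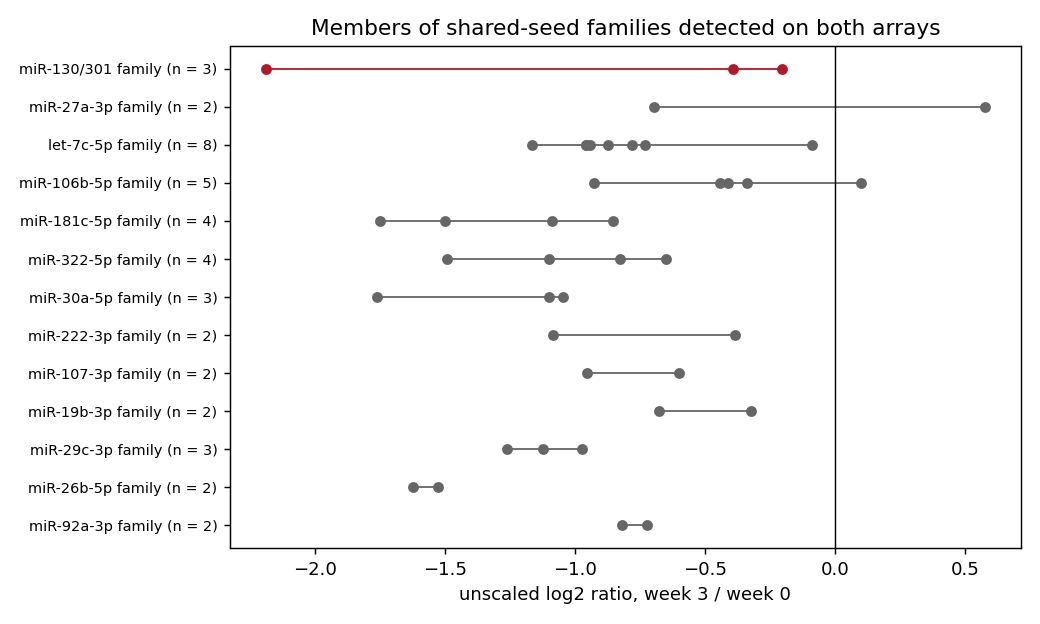
Unscaled log2 ratio of week-3 to week-0 for members (points) of the 13 shared-seed families among the 135 miRNAs detected on both arrays and matched to a sequence, each family named by its lowest member; lines span the range. The miR-130/miR-301 family (red) spans 1.98, from -2.19 to -0.21.

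The miRNAs most like miR-130a-3p were taken as the 5 with the smallest Euclidean distance over the normalized log2 signals of the 2 arrays. They were miR-26b-5p at 0.36, miR-322-5p at 0.55, miR-23a-3p at 0.74, miR-126a-3p at 0.83 and miR-107-3p at 0.84. Their log2 differences ran from -1.29 for miR-26b-5p to -0.60 for miR-107-3p. A lower signal at week-3 follows in large part from this choice, which sets signals of different probes side by side and rests on 2 values a miRNA.

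The defining markers of LSKs are proteins and mRNAs that a miRNA array does not hold. Of 6 miRNAs typical of stem and progenitor cells, all 6 were detected on both arrays, with a summed signal of 380 at week-3 and 1119 at week-0. Their sum was thus lower together with miR-130a-3p. Of this list, miR-99a-5p (log2 difference of -2.13) and miR-125b-5p (-1.95) fell further than miR-130a-3p (-1.75), and the others fell less. The granulocyte marker miR-223-3p, the whole of its list, had 1121 at week-3 and 820 at week-0. Both blood-restricted arms of miR-142a were detected, with sums of 805 at week-3 and 1416 at week-0. Of 2 lymphoid markers 1 was detected (sums of 71.0 at week-3 and 123 at week-0), miR-155-5p, which the stem and progenitor list also holds. Of 3 erythroid markers 1 was detected, miR-451a at week-0, with its own signals of 8.95 at week-3 and 48.9 at week-0. The erythroid sums, which include values below 0 of undetected markers, were 3.03 at week-3 and 46.5 at week-0. Of 3 stromal or endothelial markers 0 were detected. The part of the makeup of the sorted cells in the fall of miR-130a-3p was not tested.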

How the data were processed

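For each group, RNA of pooled LSKs was read on 1 Agilent array in a single colour (Cy3). Scans were converted by the authors to spot values in Feature Extraction 10.7.1.1. As deposited, these are intensity values per spot, with a background-subtracted processed signal and no scaling between arrays. The authors also deposited a table of log2 signals, quantile normalized with AgiMicroRna per the study's methods. Its background step is not given in the sources used here. The value table of the series holds the same log2 values as deposited there.

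Each array held 58594 spots, 30 for each of 1881 mouse miRNAs. Control spots and outlier spots (1600 at week-3 and 1941 at week-0) were left out, and saturation was flagged for 0 miRNA spots. Spots were averaged per probe, probe means were summed per miRNA, and quantile normalization over all 1881 miRNAs was applied to these sums. Values under 0.5 were raised to 0.5 before log2 (Python 3.11.15, pandas 2.3.3). The normexp alternative used limma 3.58.1. Detection was the scanner's flag, with 193 miRNAs detected at week-3 and 178 at week-0. The number of arrays limits the precision, and errors over spots do not cover differences between mice. The summary was tested on simulated data. Levels of different miRNAs were set against each other only in the distance to miR-130a-3p, since probes differ in brightness. They were also added up in the sums of the marker lists, where the brightest miRNAs weigh most.

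The thresholds were those of the study (1.5 and 0.67). Named miRNAs were the members, the other arms of their hairpins, array miRNAs with the same seed, 3 relatives with a shifted seed and the 5 most like miR-130a-3p. The members and lists were chosen with earlier results of these data known. Mature sequences were matched to RefSeq by name for 3 of the 4 members.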

Additional observations from a re-analysis of the deposited data

How the results depend on the processing

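With 1 array per group, no replicate could be left out. A paired analysis was not possible, because each group was a single pool and no pairing of mice is given. Limits of signal bear on the dim members: miR-301a-3p rested on 1 probe well above background, and miR-301b-3p was below detection on both arrays, so no difference is given for it under any alternative. The number of members at least 1.5-fold lower was 1 under all 18 alternatives, of which 1 asked for 2-fold in its place. The log2 difference of miR-130a-3p was -2.19 without normalization, -2.13 with the 75th percentile over all miRNAs, -1.92 with that over miRNAs detected on both arrays, -1.89 with medians of spots, -2.14 in the authors' table, -1.94 with the scanner's total signal and -1.15 with normexp (offset of 50) and median polish together, and the other 8 alternatives moved it by less than the SD over spots. That of miR-130b-3p was -0.39 without normalization, -0.34 with the 75th percentile over all miRNAs, -0.30 in the authors' table and 0.094 with the brightest probe alone. With the longer probe alone, which for miR-130b-3p is the same probe, it was -0.11, a difference that comes from the normalization. The scanner's total signal gave 0.13 for miR-301a-3p. There the totals were 9.12 at week-3, where both probes passed 3 times their error (3.13 for the 20 nt probe), and 7.68 at week-0, where the 20 nt probe had 2.88 and only the other passed. The family median was -0.39 without normalization. The alternatives with the shorter or the longer probe alone were chosen after seeing the data.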

Other observations

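In the 69 miRNAs with exactly 2 probes whose spots were all well above background on both arrays, the log2 ratios of the 2 probes differed by a median of 0.06, and by 0.15 at the 90th percentile. The probes of miR-130a-3p differed by 0.11 and those of miR-130b-3p by 0.03.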
